A study of Mus musculus with 25 samples.

Results

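The genes described here are 10 transcripts used to mark the stromal cells of tumours: Acta2, Tagln, Fap and Postn of myofibroblasts, Dpt, Pi16 and Pdgfra of fibroblasts, Rgs5 and Pdgfrb of pericytes, and Thy1, which marks fibroblasts and, in mice, T cells as well. They were taken by gene symbol from a table of 55450 genes, and each of the 10 symbols matched 1 gene. All were measured in bulk RNA from melanomas of the mouse line B2905, grown in C57BL/6 mice whose age is not stated. Antibodies were given at 10 mg/kg in repeated doses, from a mean tumour size of 75 mm3 onward. Controls (5 tumours) received an isotype antibody, IgG2b, and the other 20 tumours received an antibody against CTLA-4, an inhibitory receptor of T cells. By the change in size at 10 to 11 days after the last dose, 8 of the treated tumours were labelled responders (shrinking), 6 stable and 6 non-responders (growing). All groups carry the same implanted cell line, so the groups differ by antibody and by outcome, and outcome was observed rather than assigned. The comparisons ask which stromal transcripts differ between antibody arms and between outcomes.

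Fibroblasts build and remodel the collagen matrix of a tissue, and those within a tumour are called cancer-associated fibroblasts. Some take on a contractile, smooth-muscle-like form, the myofibroblast, while others keep the features of the resting fibroblasts found around vessels in many organs, for which Pi16 and Dpt are used as markers of a universal fibroblast state. Pericytes wrap capillaries, are held there by platelet-derived growth factor from endothelial cells acting on the receptor Pdgfrb, and share contractile genes with smooth muscle and myofibroblasts.

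Shown here are the promoters of Acta2, the smooth muscle actin, and Rgs5, a regulator of G protein signalling that marks pericytes. These mural cell genes are often read together. In the tumours below, both were lower in responders than in controls, at a log2 fold change of -0.88 for Acta2 and -2.0 for Rgs5. Only Rgs5 passed the threshold in edgeR (adjusted p = 0.0522 for Acta2 and 3.99e-07 for Rgs5). The difference between the 2 genes was not tested. Each window runs from 250 bases before to 50 after the RefSeq transcription start on GRCm38.p6 and is 300 bases long, written 5′ to 3′ on the strand of the gene. Acta2 lies at chr19:34255324-34255623 on the minus strand and Rgs5 at chr1:169655251-169655550 on the plus strand. Capitals mark CArG boxes, the letters bound by serum response factor, that have 1 G or C in their A and T core.
Acta2: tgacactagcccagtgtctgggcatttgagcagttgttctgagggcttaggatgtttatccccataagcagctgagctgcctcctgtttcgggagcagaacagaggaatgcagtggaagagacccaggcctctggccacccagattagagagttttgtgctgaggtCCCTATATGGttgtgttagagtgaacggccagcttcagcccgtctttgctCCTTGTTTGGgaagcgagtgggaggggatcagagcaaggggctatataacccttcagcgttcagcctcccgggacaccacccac
Rgs5: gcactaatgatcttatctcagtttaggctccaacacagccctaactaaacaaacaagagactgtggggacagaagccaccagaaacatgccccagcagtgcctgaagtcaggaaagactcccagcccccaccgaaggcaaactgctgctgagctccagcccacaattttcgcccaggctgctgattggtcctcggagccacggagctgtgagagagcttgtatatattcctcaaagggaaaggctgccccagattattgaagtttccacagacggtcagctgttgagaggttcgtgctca
The 2 boxes of Acta2 begin at positions -84 and -34 from the start, and the Rgs5 window held none. On either strand, this form of the box was present in 8.5% of 32851 mouse promoter windows of this length, and the box without any G or C in its core, which neither window held, in 1.63%. RefSeq windows were at hand for 6 of the 10 genes (Acta2, Dpt, Pdgfra, Pi16, Postn and Rgs5). Among these, Acta2 alone held a box of this form. The E-box letters CANNTG were present in 72.3% of all windows, with 3 matches in Acta2 and 1 in Rgs5, and the letters TATAAA in 13.6%, with no match in either. A match describes letters and is no evidence of binding.

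Total counts per tumour ranged from 8.77 to 34.3 M, and each of the 10 genes had at least 9 counts in every library and passed the low-count filter that left 18031 genes. Levels are given as scaled CPM, counts per M counts after TMM scaling of the libraries, and as RPKM where genes are compared with each other. Protein-coding genes took 82.9 to 89.2% of counts in controls, non-responders and stable tumours, and 23.8 to 87.0% in responders, with 2 responders (1 and 4) under 60%. The median of responders was 68.8%, and all but responder 5 (87.0%) were at 74.3% or less, below every tumour of the other groups. Protein-coding share and responder group were thus largely confounded, and fits with the share as a covariate cannot separate them. Below, the covariate is this share as a term of the model. It was also entered in 4 other forms chosen after seeing the data, namely its log2, its log odds, the log2 of the share outside protein-coding genes, and the share centred on its group mean, a form that leaves the difference in share between groups in place. The summed level of 6 melanocytic markers was 9940 to 16600 scaled CPM in the controls and 379 to 13300 in non-responders. It was 10.5 to 164 in stable and 17.6 to 412 in responding tumours, so these pigment genes were low in the last 2 groups. Non-responders 4, 5 and 6, at 869, 525 and 379, also lay far below the controls. A lower level in bulk RNA can come from fewer cells or from less RNA per cell, and these cannot be told apart here. Library numbers run by group in the labels, so processing order and group cannot be told apart either. Each tumour gave 1 library and nothing in the labels says that tumours were paired, so p-values measure the spread between these tumours.

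Per length, Postn, a matricellular protein secreted by activated fibroblasts, had the highest RPKM of the 10 genes in every tumour of 3 groups, and lay at first or second place in responders. Thy1, a surface glycoprotein, lay at places 1 to 3 in all 25 tumours. Rgs5 changed its place most between groups. It held places 2 to 7 in controls and 5 to 8 in non-responders, and places 8 to 10 in stable tumours and responders. In controls the median RPKM was 74.5 for Postn, 19.8 for Thy1, 11.2 for Pdgfrb, 10.2 for Dpt, 9.47 for Rgs5, 8.95 for Acta2, 6.74 for Tagln, 5.88 for Pdgfra, 3.94 for Fap and 1.98 for Pi16. The ranges of Pdgfrb, Dpt, Rgs5 and Acta2 overlapped among controls, so their order is not resolved. In stable tumours the medians were 213 for Postn, 62.2 for Thy1, 56.6 for Dpt, 22.1 for Pdgfrb, 17.6 for Pdgfra, 6.96 for Fap, 6.91 for Pi16, 6.25 for Acta2, 4.47 for Tagln and 2.32 for Rgs5. In every stable tumour Dpt (places 2 to 3) and Pdgfra (places 5 to 6) stood above Acta2 (place 7), whereas in every control Pdgfra (places 7 to 8) stood below it (places 4 to 6).

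**Figure D1:**
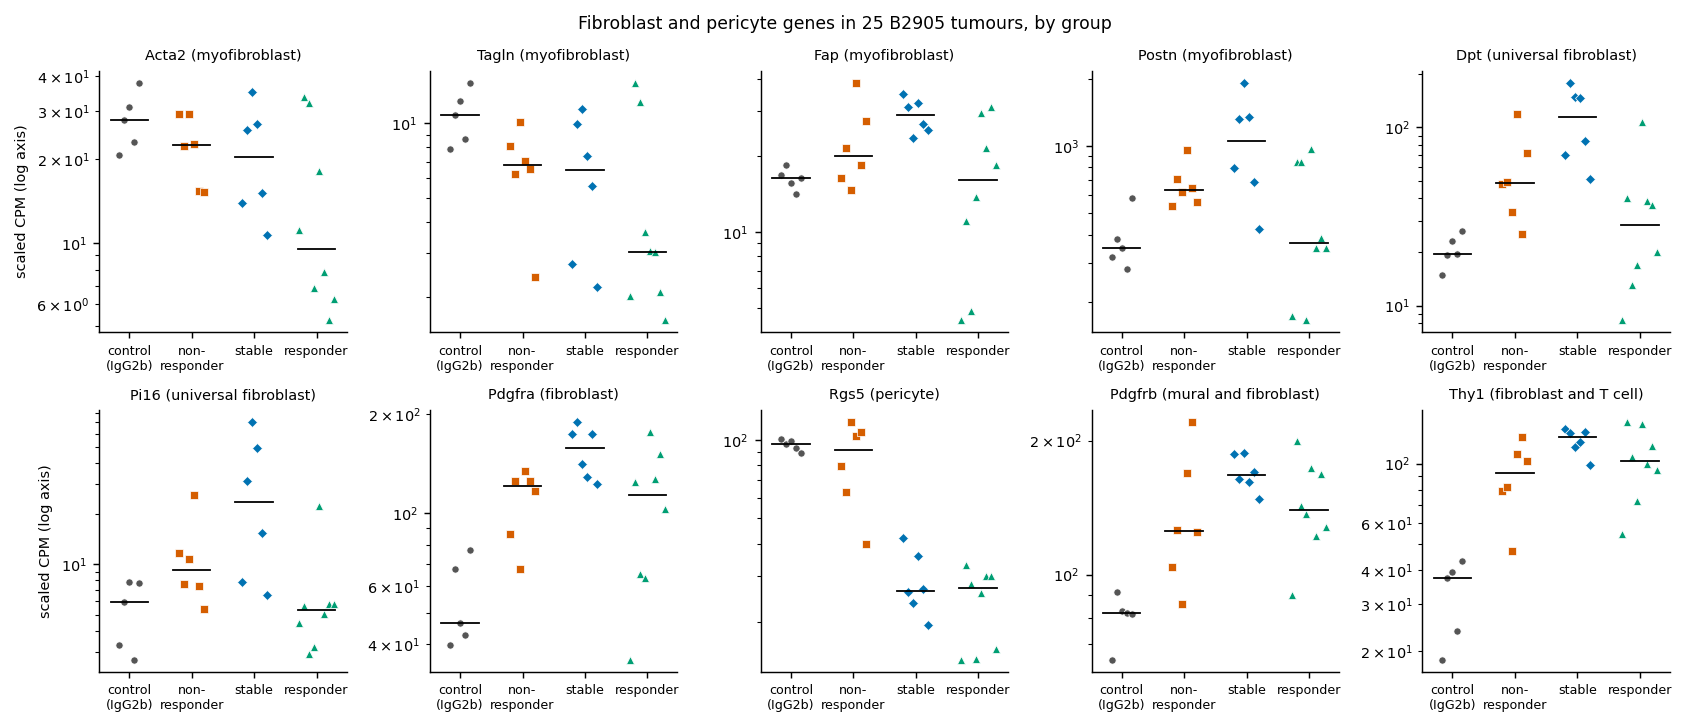
Scaled CPM (log axis) of each of the 10 genes in every tumour, by group, with 1 point per tumour and a bar at the median of the group. Rgs5 is low in all stable tumours and responders, Thy1 and Pdgfrb are higher in the anti-CTLA-4 groups than in controls, and Dpt, Pi16 and Postn peak in stable tumours.

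In stable tumours, the fibroblast genes Dpt, Pi16 and Pdgfra stood above controls, and the pericyte genes split, with Pdgfrb above and Rgs5 below. Of the myofibroblast genes only Postn passed the threshold, and Acta2 and Tagln were on the lower side, at log2 fold changes of -0.40 and -0.72. Of the 10 genes, 6 rose (Dpt, Pi16, Pdgfra, Pdgfrb, Postn and Thy1) and 1 fell (Rgs5) at an adjusted p under 0.05 in edgeR's quasi-likelihood test, where 41.8% of all 18031 genes tested were called, 22.2% higher and 19.6% lower. The median log2 fold change of the 10 genes was 1.29, against 0.02 for all genes tested. Among non-responders, 3 genes rose over controls (Pdgfra, Pdgfrb and Thy1) and 0 fell, beside 13.9% of all genes called (10.6% higher, 3.29% lower), with a median of 0.80 against 0.04. Responders had the same 3 genes higher than controls and Rgs5 lower, 4 of 10, in a comparison that called 65.0% of all genes (36.1% higher, 28.9% lower), with a median of 0.38 against 0.16. Over the 3 outcome groups weighted equally, 6 genes rose and 1 fell, and 51.1% of all genes were called (27.7% higher, 23.4% lower). These 4 comparisons share the control tumours.

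Between outcomes fewer of these genes differed. Responders had 1 of the 10 genes (Rgs5) lower than non-responders and 0 higher, although 48.9% of all genes were called (25.2% higher, 23.8% lower). Stable tumours likewise had Rgs5 lower than non-responders and 0 genes higher, beside 14.9% of all genes (7.08% higher, 7.86% lower). Responders had 3 genes (Postn, Dpt and Pi16) lower than stable tumours, and 38.2% of all genes were called (20.5% higher, 17.8% lower). The shares of the 10 genes called in responder comparisons were thus below the share of all genes, and no list test was made.

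**Figure D2:**
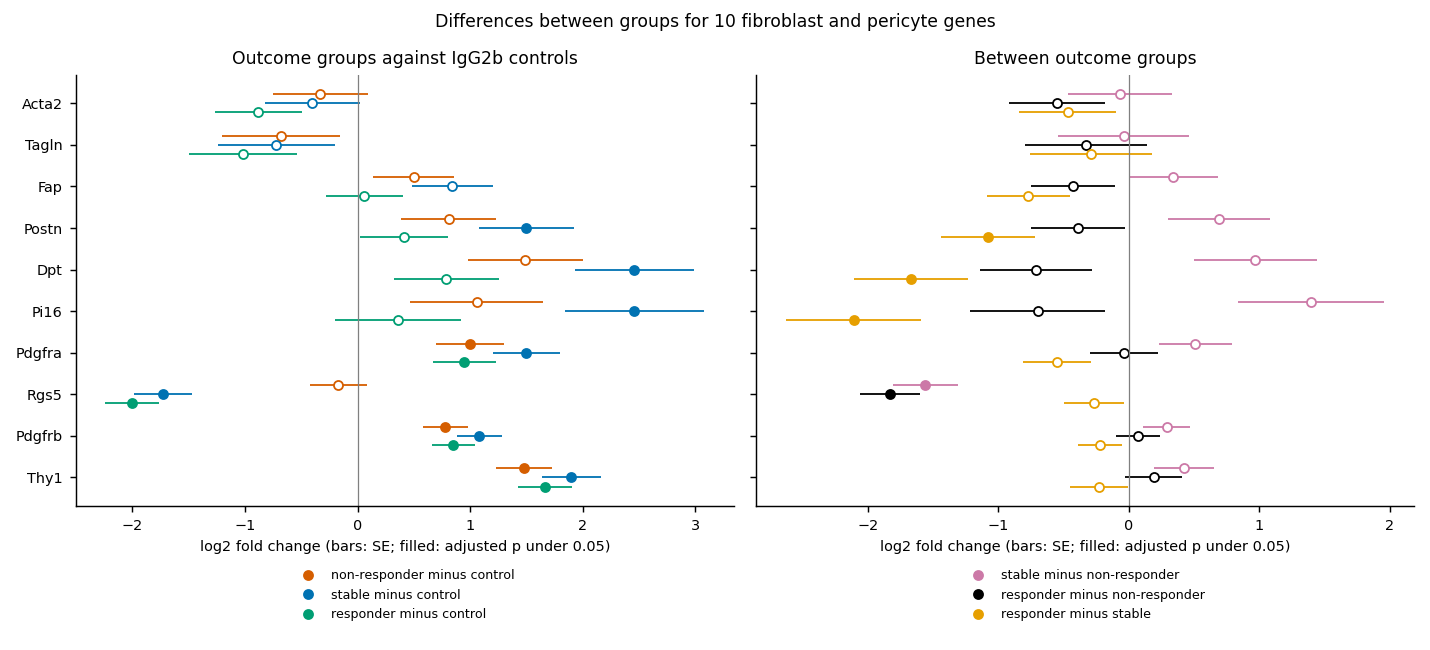
Log2 fold changes of the 10 genes with standard errors, for the 3 outcome groups against controls (left) and between outcome groups (right), with filled points for an adjusted p under 0.05. Rgs5 is lower in stable tumours and responders than in controls or non-responders, while Dpt and Pi16 are at 2.46 in stable tumours against controls and below 0 in responders against stable tumours.

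Rgs5 (ENSMUSG00000026678.10, chromosome 1, 169655501 to 169695813, plus strand, GRCm38) was low in the tumours that shrank or stayed stable. The 5 controls held 101, 97.1, 99.3, 93.1 and 89.4 scaled CPM. Non-responders ranged from 40.0 to 118 with a median of 91.6, stable tumours from 19.5 to 42.1 with a median of 26.4, and responders from 14.3 to 33.0 with a median of 26.9. All 8 responders lay below every non-responder and every control, and all 6 stable tumours below every control, while 1 stable tumour lay above the lowest non-responder.

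The log2 fold change of Rgs5 was -1.83 between responders and non-responders (SE 0.23, adjusted p = 1.11e-05, edgeR). It was -1.56 between stable tumours and non-responders (SE 0.25, adjusted p = 0.00117). Against controls it was -2.0 in responders (SE 0.24, adjusted p = 3.99e-07) and -1.73 in stable tumours (SE 0.26, adjusted p = 1.11e-05), a level 3.31-fold lower. Non-responders and controls were not distinguished, with a log2 difference of -0.17 and a 95% interval of -0.67 to 0.33, nor were responders and stable tumours, with -0.27 and an interval of -0.72 to 0.18. For Rgs5 the calls of responders and of stable tumours against controls held in all 40 alternative fits, including those without the 2 responders of low protein-coding share and with any form of the covariate. The call between responders and non-responders held in 39, at -1.50 (adjusted p = 0.00576) with the covariate, and was lost with the log2 of the share outside protein-coding genes (-1.54, adjusted p = 0.0728). Its call between stable tumours and non-responders was lost only when a change of at least 2-fold was required (adjusted p = 0.368).

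Of a list of 11 further pericyte genes, 6 were lower in responders than in non-responders and 0 higher, where 23.8% of all genes were lower and 25.2% higher. The share called in either direction was thus close to the 48.9% of all genes, with a median log2 fold change of -0.90 against 0.05 for all genes. Abcc9 and Kcnj8, which encode the subunits of a potassium channel of pericytes, fell by 1.25 (adjusted p = 5.14e-05) and 1.00 (adjusted p = 0.00257) on the log2 scale. The adhesion molecule Mcam fell by 0.93 (adjusted p = 0.000903) and Higd1b by 1.55 (adjusted p = 0.00697), the latter at a mean of only 0.323 scaled CPM in responders and 0.954 in non-responders. The other 2 genes called lower were Vtn and Cox4i2. Notch3, the receptor that keeps mural cells in their differentiated state, was at a log2 fold change of 0.25 (adjusted p = 0.391), and the proteoglycan gene Cspg4 at -0.35 (adjusted p = 0.356), so the list did not move as a whole. Mcam had a mean of 240 scaled CPM in responders and 457 in non-responders, against 8.63 and 20.7 for Abcc9. All 6 melanocytic markers were lower in the same comparison. The part of tumour cells in the Mcam and Cspg4 levels was not tested.

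In stable tumours, 2 of the 11 pericyte genes fell against non-responders, in a comparison that called 14.9% of all genes and 7.86% lower. These were Abcc9 by 1.00 (adjusted p = 0.00368) and Higd1b by 1.74 (adjusted p = 0.016), the latter at a mean of only 0.28 scaled CPM in stable tumours. The count depended on the tool, with 6 of the 11 at an unadjusted p under 0.05 in edgeR and 5 called in DESeq2. Abcc9 held 21.7, 23.8, 31.3, 21.0 and 19.0 scaled CPM in the controls. Its level was 14.4 to 28.2 in non-responders, 6.69 to 13.7 in stable and 5.13 to 13.0 in responding tumours, so that stable tumours and responders lay below all tumours of the other 2 groups. Against controls, 4 of the 11 were lower in responders and 3 in stable tumours, with 1 higher in stable tumours and 0 called in non-responders (edgeR, 1 at an unadjusted p under 0.05, 0 in DESeq2). Of all genes, 65.0% were called in that comparison of responders and 41.8% in that of stable tumours, so the pericyte list was called less often than all genes in the first, and 4 of 11 is near the share of all genes in the second.

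Endothelial markers were lower in the comparisons in which Rgs5 was. All 7 listed endothelial genes were lower in responders than in non-responders and in controls, beside 23.8% and 28.9% of all genes. In stable tumours 6 were lower than in non-responders and 5 than in controls, beside 7.86% and 19.6% of all genes. In responders 3 were also lower than in stable tumours and 0 higher, beside 17.8% of all genes, a comparison in which Rgs5 was not called. Between non-responders and controls 0 were called (edgeR, 0 at an unadjusted p under 0.05, 0 in DESeq2), beside 13.9% of all genes. The summed level of the 7 endothelial genes was 160 to 230 scaled CPM in the controls, 171 to 328 in non-responders, 93.5 to 163 in stable and 56.7 to 140 in responding tumours. Cdh5, the cadherin of endothelial junctions, fell by 1.53 on the log2 scale in responders against non-responders (adjusted p = 4.01e-05). With group means removed, the 3 genes most alike Rgs5 across the 25 tumours, among 13360 genes with a mean of at least 1 CPM, were Rhoj (r = 0.779), Cdh5 (r = 0.777) and Emcn (r = 0.755), and the last 2 are endothelial markers of that list. The part that the amount of vessel in a tumour takes in the Rgs5 level was not tested.

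**Figure D3:**
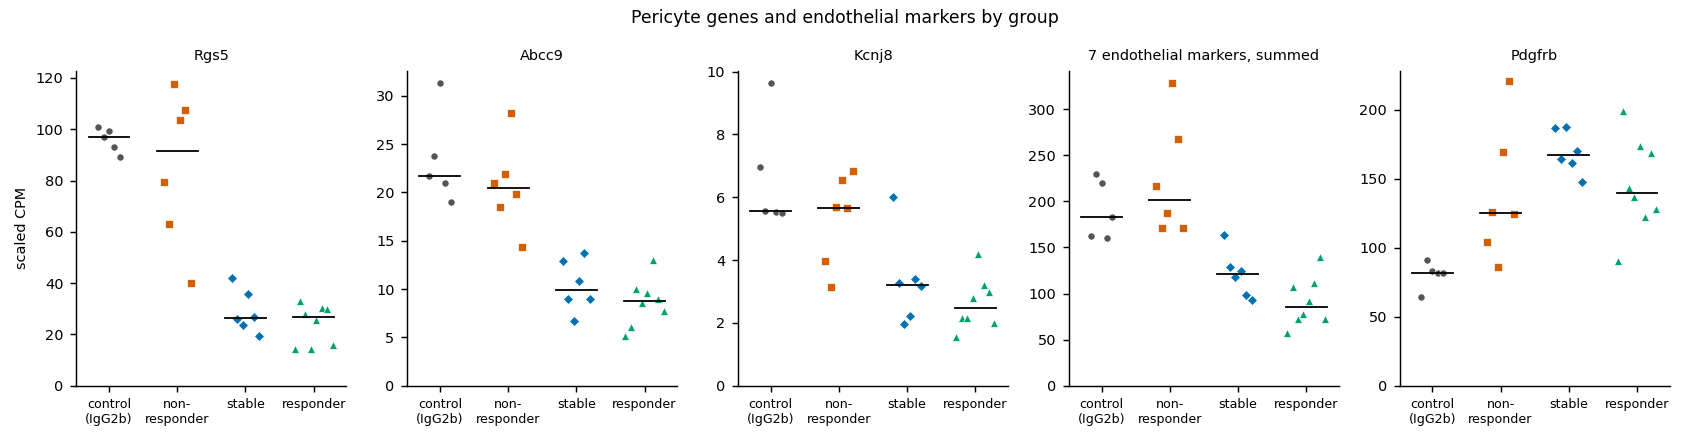
Scaled CPM of Rgs5, Abcc9, Kcnj8, the sum of 7 endothelial markers and Pdgfrb in every tumour, by group, with bars at the median. In the first 4 panels the medians of stable tumours and responders are below those of the other groups, whereas for Pdgfrb they are above that of controls. Stable tumour 1 lies within the range of the controls for Kcnj8 and for the endothelial sum.

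Pdgfrb (ENSMUSG00000024620.11, chromosome 18, 61045150 to 61085061, plus strand) encodes the receptor for platelet-derived growth factor on pericytes and on many fibroblasts, and went the other way from Rgs5. It held 64.4, 91.3, 82.8, 82.0 and 81.4 scaled CPM in the controls. Non-responders ranged from 85.8 to 221 with a median of 125, stable tumours from 148 to 187 with a median of 167, and responders from 90.2 to 199 with a median of 140. All 6 stable tumours lay above every control, as did 5 of 6 non-responders and 7 of 8 responders. The log2 fold change over controls was 0.78 in non-responders (SE 0.20, adjusted p = 0.00887), 1.08 in stable tumours (SE 0.20, adjusted p = 0.000113) and 0.85 in responders (SE 0.19, adjusted p = 0.0004). No outcome group was distinguished from another, with a 95% interval of -0.27 to 0.41 for responders against non-responders. Pdgfrb in non-responders fell just outside the call when only the groups compared were fitted (adjusted p = 0.0501), and its calls in all 3 groups were lost when a change of at least 2-fold was required.

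Ligand genes of these receptors were higher than controls in part. Of the 4 genes, Pdgfa, Pdgfb, Pdgfc and Pdgfd, 4 were higher than controls in stable tumours, 3 in responders and 2 in non-responders, and 0 were lower, where 22.2%, 36.1% and 10.6% of all genes were higher. Pdgfb, the ligand with which endothelial cells recruit pericytes and which other cells also make, ranged from 22.0 to 28.5 scaled CPM in the controls, 27.7 to 76.5 in non-responders, 63.4 to 85.4 in stable and 60.6 to 94.4 in responding tumours. Its log2 fold change over controls was 1.14 (adjusted p = 0.000735), 1.59 (adjusted p = 2.54e-06) and 1.60 (adjusted p = 7.22e-07) in the order non-responders, stable tumours, responders. Responders also exceeded non-responders, by 0.45 (adjusted p = 0.0408). Pdgfc, a ligand of Pdgfra, was higher in stable tumours, by 0.79 over non-responders (adjusted p = 0.0127). Pdgfd, a ligand of Pdgfrb, fell by 0.69 in responders against non-responders (adjusted p = 0.0167).

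Thy1 (ENSMUSG00000032011.5, chromosome 9, 44043384 to 44048579, plus strand) was higher in every anti-CTLA-4 tumour than in every control. The controls held 18.6, 37.7, 39.6, 23.8 and 43.3 scaled CPM. Non-responders ranged from 47.3 to 126 with a median of 92.3, stable tumours from 98.6 to 134 with a median of 125, and responders from 54.9 to 143 with a median of 102. Thy1 was 2.79-fold higher than controls in non-responders (log2 fold change 1.48, SE 0.25, adjusted p = 0.000596), 3.74-fold in stable tumours (1.90, SE 0.26, adjusted p = 3.49e-06) and 3.18-fold in responders (1.67, SE 0.24, adjusted p = 4.6e-06). Its calls in stable tumours and responders held in all 40 alternatives, and that in non-responders was lost only under the 2-fold requirement (adjusted p = 0.234). Between outcomes it was not called, with a 95% interval of -0.24 to 0.61 for responders against non-responders.

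T cell genes moved with Thy1. All 8 listed T cell markers were higher than controls in each of the 3 outcome groups. Of all genes, 36.1% were higher than controls for responders, 22.2% for stable tumours and 10.6% for non-responders. None of the 8 markers was at 0 in any group as a whole. Their sum was 7.97 to 22.5 scaled CPM in the controls, 19.8 to 151 in non-responders, 119 to 185 in stable and 95.9 to 197 in responding tumours. Cd3e, a chain of the T cell receptor complex, was higher than controls by 3.69 on the log2 scale in responders and by 3.32 in stable tumours. Thy1 and Cd3e also varied together within groups (Pearson r = 0.73, Spearman rho = 0.66 of group-centred log2 CPM over 25 tumours, permutation within groups, adjusted p = 0.000567 and 0.0019 over 10 relations), and r was 0.63 without the 2 tumours farthest in Thy1. Within groups r was 0.95 for controls, 0.94 for non-responders, 0.19 for stable tumours and 0.51 for responders. The genes most alike Thy1 over the 25 tumours were Clec4a1 (r = 0.858), Kctd12 (r = 0.848) and Rnf150 (r = 0.84), none of them a listed T cell marker. The part of T cells in the Thy1 level was not tested.

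**Figure D4:**
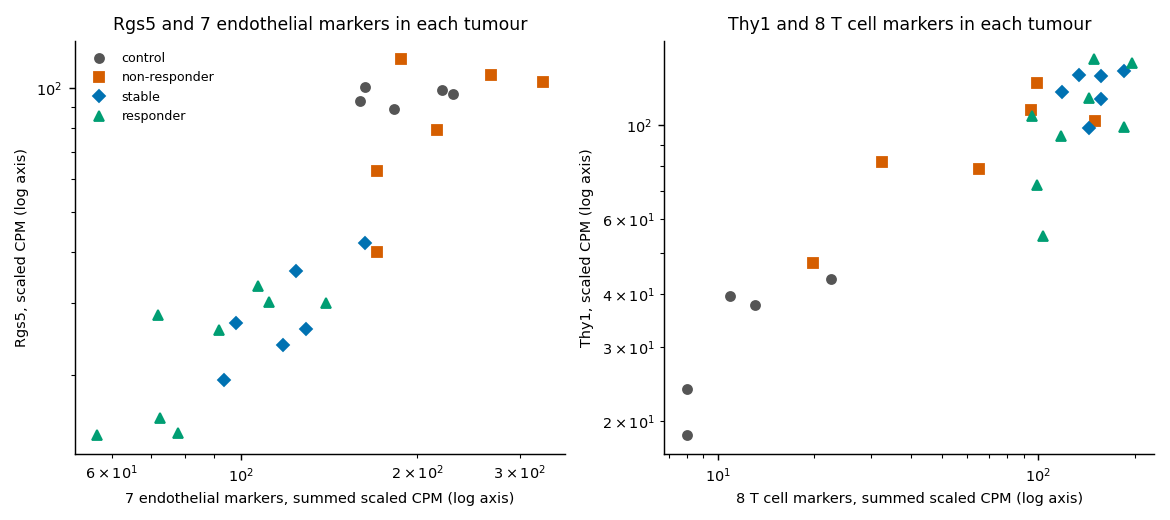
Left, Rgs5 against the sum of 7 endothelial markers, and right, Thy1 against the sum of 8 T cell markers, in scaled CPM on log axes with 1 point per tumour and a symbol per group. Stable tumours and responders lie at the low end of the left panel, and the 5 controls lie at the low end of the right panel.

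Dpt (ENSMUSG00000026574.5, chromosome 1, 164796644 to 164824266, plus strand), which encodes the matrix protein dermatopontin, was highest in stable tumours. The controls held 14.8, 19.3, 23.1, 19.5 and 26.1 scaled CPM. Non-responders ranged from 25.3 to 120 with a median of 48.5, stable tumours from 51.6 to 179 with a median of 115, and responders from 8.26 to 108 with a median of 28.4. All 6 stable tumours lay above every control, and 7 of 8 responders below every stable tumour.

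Dpt was 5.51-fold higher in stable tumours than in controls (log2 fold change 2.46, SE 0.53, adjusted p = 0.00056) and 3.19-fold lower in responders than in stable tumours (-1.67, SE 0.44, adjusted p = 0.00699). The first call held in all 40 alternatives. The second was lost with the covariate (-0.78, adjusted p = 0.453), in 3 of its other forms (adjusted p from 0.121 to 1.0) and under the 2-fold requirement. Between non-responders and controls the log2 fold change was 1.49 (adjusted p = 0.0508). It was called in 16 alternatives, among them the covariate (1.56, adjusted p = 0.00976), DESeq2 (adjusted p = 0.0208) and the fits without responder 1 (0.0359), responder 3 (0.0429), responder 5 (0.0169), stable tumour 6 (0.0499), non-responder 3 (0.0297) or non-responder 5 (0.0439). Responder 5 held the 108 scaled CPM, and without it Dpt was also called lower in responders than in non-responders (-1.21, adjusted p = 0.00912). A call there was also made with the group-centred share (-1.01, adjusted p = 0.0192), whereas the covariate gave 0.18 (adjusted p = 0.817). In responders against controls Dpt was at 0.79 (adjusted p = 0.149), and at 1.07 (adjusted p = 0.0464) without the 2 responders of low protein-coding share. With the covariate that difference rose to 1.74 and was called (adjusted p = 0.00419), as it was at 1.42 to 2.19 in 3 of the other forms (adjusted p from 0.00301 to 0.00993).

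Pi16 (ENSMUSG00000024011.17, chromosome 17, 29317680 to 29330593, plus strand), a peptidase inhibitor gene of universal fibroblasts, followed Dpt at a lower level. Controls held 3.30, 5.97, 7.79, 2.69 and 7.76 scaled CPM. Non-responders ranged from 5.39 to 25.8 with a median of 9.17, stable tumours from 6.53 to 70.6 with a median of 23.4, and responders from 2.90 to 22.3 with a median of 5.31. The stable group was the most spread, with 2 tumours within the range of controls. Pi16 was 5.51-fold higher in stable tumours than in controls (log2 fold change 2.46, SE 0.62, adjusted p = 0.0024) and 4.31-fold lower in responders than in stable tumours (-2.11, SE 0.52, adjusted p = 0.0054).

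Between stable tumours and non-responders Pi16 was at 1.40 (adjusted p = 0.0917), a difference called with DESeq2 (adjusted p = 0.0477) and without responder 5 (0.0462), stable tumour 6 (0.0484) or non-responder 4 (0.0362). Without responder 5, Pi16 was lower in responders than in non-responders as well (-1.28, adjusted p = 0.026). Its call between responders and stable tumours was lost with the covariate (-1.48, adjusted p = 0.362), in 3 of its other forms (adjusted p from 0.0854 to 1.0) and under the 2-fold requirement (adjusted p = 0.219). Over the 3 outcome groups together Pi16 was at 1.29 above controls (adjusted p = 0.0427), a call lost in 8 of the fits without a tumour (adjusted p from 0.05 to 0.117, without stable tumours 3 or 4, non-responders 1 or 4, or controls 1, 2, 4 or 5). The call was further lost when low counts were not filtered (1.17, adjusted p = 0.119), in limma on log2(RPKM + 1) (0.78, adjusted p = 0.0785) and on log2(RPKM + 0.1) (1.02, adjusted p = 0.0637), and under the 2-fold requirement (adjusted p = 0.626).

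Pdgfra (ENSMUSG00000029231.15, chromosome 5, 75152292 to 75198215, plus strand), the receptor for platelet-derived growth factor that is widely used to mark fibroblasts, was higher in all outcome groups than in controls. The controls held 40.0, 67.6, 46.5, 42.8 and 77.5 scaled CPM. Non-responders ranged from 67.6 to 134 with a median of 121, stable tumours from 122 to 190 with a median of 158, and responders from 35.9 to 177 with a median of 114. All 6 stable tumours lay above every control, whereas responder 1 lay below every control. The log2 fold change over controls was 1.00 in non-responders (SE 0.30, adjusted p = 0.026), 1.50 in stable tumours (SE 0.30, adjusted p = 0.000288) and 0.95 in responders (SE 0.28, adjusted p = 0.0052). The call in non-responders was lost without non-responder 4 (adjusted p = 0.0622), non-responder 5 (0.0562), control 1 (0.0848), control 3 (0.0615) or control 4 (0.081). Between responders and non-responders Pdgfra did not differ detectably, with -0.04 and a 95% interval of -0.55 to 0.47. It was called lower in responders than in stable tumours without responder 5 (-0.69, adjusted p = 0.0269) and with the group-centred share (-0.65, adjusted p = 0.015), and was at 0.07 (adjusted p = 0.936) with the covariate.

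Further fibroblast genes had their highest sums in stable tumours. Of 10 other universal fibroblast genes, 7 were higher in stable tumours than in controls, with a median log2 fold change of 1.34 against 0.02 for all genes, and 0 lower. In responders 4 were higher and 1 lower than in controls, and in non-responders 3 were higher. Of all genes, 22.2%, 36.1% and 10.6% were higher in these comparisons in the order stable tumours, responders, non-responders. In responders 4 of the 10 were lower than in stable tumours, beside 17.8% of all genes, and 0 higher, so that about as large a share was called as the 38.2% of all genes. Against non-responders 2 of the 10 were lower, a smaller share than the 23.8% of all genes. These 2 were Cd34 (-1.26, adjusted p = 0.00181), a sialomucin also carried by endothelial cells, and the semaphorin Sema3c (-0.85, adjusted p = 0.0154). Of 10 general fibroblast genes, 8 were higher and 1 lower in stable tumours than in controls, and 6 were lower and 0 higher in responders than in stable tumours. Against non-responders, 3 of these were lower in responders, including Lum (-1.61, adjusted p = 0.00221), a proteoglycan of collagen fibrils, and the procollagen processing factor Pcolce (-0.92, adjusted p = 0.000358). In stable tumours 3 were higher than in non-responders, beside 7.08% of all genes, including Pdpn (1.40, adjusted p = 0.0264) and the matrix protease Mmp2 (0.60, adjusted p = 0.0373). Pcolce was the general fibroblast gene below controls in stable tumours (-0.71, adjusted p = 0.00552). Macrophage markers had the same order as the universal fibroblast sum, with medians of 504 scaled CPM for controls, 1010 for non-responders, 1980 for stable tumours and 920 for responders in the sum of 5 genes, and 4 of the 5 were lower in responders than in stable tumours. Their part in the fibroblast genes was not tested.

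Postn (ENSMUSG00000027750.16, chromosome 3, 54361109 to 54391037, plus strand) was called in the same comparisons as Dpt and Pi16. The controls held 317, 382, 349, 281 and 585 scaled CPM. Non-responders ranged from 535 to 953 with a median of 633, stable tumours from 426 to 1920 with a median of 1054, and responders from 165 to 969 with a median of 368. It was 2.82-fold higher in stable tumours than in controls (log2 fold change 1.50, SE 0.42, adjusted p = 0.00609), with 5 of 6 stable tumours above every control. In responders Postn was 2.12-fold lower than in stable tumours (-1.08, SE 0.36, adjusted p = 0.023). That call was lost without stable tumour 3 (-0.84, adjusted p = 0.0796), without stable tumour 4 (-1.01, adjusted p = 0.0511), without the 2 responders of low protein-coding share (-0.80, adjusted p = 0.0771), with only the 2 groups fitted (adjusted p = 0.0682), under the 2-fold requirement, with the covariate (-0.28, adjusted p = 0.747) and in 3 of its other forms, of which the log2 of the share outside protein-coding genes turned the sign (0.19, adjusted p = 1.0). In responders against controls Postn was at 0.41 (adjusted p = 0.359). The covariate raised that to 1.26 and made it a call (adjusted p = 0.00858), and 3 of the other forms gave 0.96 to 1.81 (adjusted p from 0.00349 to 0.03). Between non-responders and controls it was at 0.81 (adjusted p = 0.203), called with only these groups fitted (adjusted p = 0.0411) and in 2 forms of the share (0.0321 and 0.0474). Over the 3 outcome groups together Postn was at 0.91 above controls (adjusted p = 0.0392), and 7 fits without a tumour (stable tumours 3 or 4, non-responder 4, or controls 1 to 4) gave an adjusted p from 0.052 to 0.104. The call was further lost when low counts were not filtered (0.78, adjusted p = 0.116) and under the 2-fold requirement.

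Fap (ENSMUSG00000000392.17, chromosome 2, 62500943 to 62574075, minus strand), a surface protease of activated fibroblasts, was called in no comparison. The controls held 16.7, 18.3, 15.6, 14.1 and 16.3 scaled CPM. Non-responders ranged from 14.6 to 38.8 with a median of 19.9, stable tumours from 23.4 to 35.0 with a median of 28.9, and responders from 4.46 to 31.0 with a median of 16.0. All 6 stable tumours lay above every control, yet the log2 fold change of 0.84 missed the threshold (SE 0.36, adjusted p = 0.0672). It passed in 9 alternatives, without responder 1 (adjusted p = 0.0418), responder 3 (0.0359) or the 2 responders of low protein-coding share (0.0353), when only stable tumours and controls were fitted (6.31e-05), and with the covariate (0.0372) or its other forms (0.035 to 0.0447). Responders 1 and 3 had the lowest Fap of all 25 tumours. In responders against stable tumours Fap was at -0.77 (adjusted p = 0.0571), called without responder 5 (0.0182) or responder 7 (0.0274), in DESeq2 (0.0446) and with the group-centred share (0.0223). Its direction in responders against controls changed with the setting, from 0.06 to between -0.12 and -0.02 in 6 alternatives.

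Acta2 (ENSMUSG00000035783.9, chromosome 19, 34241090 to 34255590, minus strand), the actin of contractile stress fibres, was not called in any of the 7 comparisons. The controls held 20.8, 27.8, 30.9, 23.0 and 37.9 scaled CPM. Non-responders ranged from 15.2 to 29.3 with a median of 22.6, stable tumours from 10.7 to 35.2 with a median of 20.4, and responders from 5.24 to 33.7 with a median of 9.50. Of the 8 responders, 6 lay below every control, while responders 2 and 3 held 33.7 and 32.1. The log2 fold change of responders against controls was -0.88 (SE 0.39, adjusted p = 0.0522, edgeR). It was called in 11 of 40 alternatives, including DESeq2 (adjusted p = 0.0377), limma on log2(RPKM + 1) (0.0144) and the fits without responder 2 (0.00983), responder 3 (0.012), stable tumour 3 (0.0493), stable tumour 6 (0.049) or control 1 (0.0494), and came to 0.09 (adjusted p = 0.923) with the log2 of the share outside protein-coding genes. The 95% interval of the log2 difference was -1.15 to 0.49 for non-responders against controls and -1.28 to 0.19 for responders against non-responders.

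Tagln (ENSMUSG00000032085.5, chromosome 9, 45929619 to 45936058, minus strand), an actin-binding protein of smooth muscle also called transgelin, had the same pattern. Controls held 7.87, 10.8, 12.3, 8.63 and 14.6 scaled CPM. Non-responders ranged from 2.41 to 10.1 with a median of 6.79, stable tumours from 2.18 to 11.4 with a median of 6.50, and responders from 1.60 to 14.5 with a median of 3.04. Responders 2 and 3 were again the highest of their group. The log2 fold change of responders against controls was -1.02 (SE 0.48, adjusted p = 0.0681). It was called without responder 2 (-1.43, adjusted p = 0.00865) or responder 3 (-1.32, adjusted p = 0.019), in limma on log2(RPKM + 1) (adjusted p = 0.0209) and log2(RPKM + 0.1) (0.0207) and with the group-centred share (0.0322), and came to 0.20 (adjusted p = 0.885) with the log2 of the share outside protein-coding genes. Over the 3 outcome groups together it was at -0.81 (adjusted p = 0.101), called without responder 2 (-0.94, adjusted p = 0.0351) and in limma on log2(RPKM + 1) (adjusted p = 0.0365) and log2(RPKM + 0.1) (0.0371). Tagln overlaps Pcsk7 on the opposite strand, and the strand setting of the counting is not stated, so reads of the 2 genes may not have been separated. Antisense genes are annotated across Dpt, Pi16 and Pdgfra as well.

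Of 12 further contractile genes, 11 were tested and 4 were lower in responders than in non-responders, with 0 higher, so that a smaller share was called than the 48.9% of all genes, of which 23.8% were lower. Myl9, a regulatory light chain of myosin, fell by 1.32 on the log2 scale (adjusted p = 8.85e-05) and Tpm1, a tropomyosin, by 0.56 (adjusted p = 0.00123). Myl9 ranged from 3.30 to 10.9 scaled CPM in responders and from 12.1 to 16.2 in non-responders, with no overlap. No contractile gene was called between stable tumours and non-responders (edgeR, 1 at an unadjusted p under 0.05, 1 in DESeq2, median log2 fold change -0.10 against -0.02 for all genes). Against controls, 4 were lower and 1 higher in responders, and 2 each in stable tumours. Among all genes, 28.9% were lower and 36.1% higher in responders, and 19.6% and 22.2% in stable tumours. The list was thus called less often than all genes in responders, and near the share of all genes in stable tumours. Of the serum response factor genes, 3 were tested, and Mrtfa, a coactivator of that factor, rose by 0.37 in responders against non-responders (adjusted p = 0.0193). Markers of skeletal muscle, which shares parts of this program, summed to 61.4 to 1270 scaled CPM in the controls, 132 to 1290 in non-responders, 356 to 1040 in stable and 48.2 to 819 in responding tumours, and 2 of the 6 were lower in responders than in non-responders. Their part in the contractile genes was not tested.

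Of 9 matrix myofibroblast genes tested, 3 rose and 2 fell in responders against non-responders, near the 48.9% of all genes called there. In stable tumours 2 rose and 1 fell against non-responders, beside 7.08% and 7.86% of all genes. Inhba, which encodes an activin subunit, rose by 1.99 in responders (adjusted p = 0.00083) and by 2.22 in stable tumours (adjusted p = 0.00368). Its level was 6.47 to 11.5 scaled CPM in the controls, 8.29 to 45.4 in non-responders, 43.8 to 152 in stable and 33.0 to 174 in responding tumours. Tgfbi, a matrix protein induced by transforming growth factor beta, rose by 1.23 in stable tumours (adjusted p = 0.0102), and the antagonist gene Grem1 by 2.83 in responders (SE 0.96, adjusted p = 0.0186). Adam12, a metalloprotease, fell by 1.66 in responders (adjusted p = 0.000106) and by 1.94 in stable tumours (adjusted p = 0.00113), from 125 to 540 scaled CPM in non-responders to 55.8 to 136 and 41.9 to 106. Cthrc1, a collagen-associated gene, fell by 1.70 in responders (adjusted p = 0.00262).

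Of 8 listed inflammatory fibroblast genes, 6 were tested, of which 4 were higher than controls in stable tumours, 3 in responders and 1 in non-responders, where 22.2%, 36.1% and 10.6% of all genes were higher. Against non-responders, 2 were higher in stable tumours, beside 7.08% of all genes. These were the chemokine Cxcl12 (1.04, adjusted p = 0.0137) and the complement component C3 (1.91, adjusted p = 0.0252), which macrophages also make. C3 ranged from 40.7 to 222 scaled CPM in controls and from 2884 to 4987 in stable tumours. Of 7 tested transcription factors of fibroblasts, 4 were lower and 0 higher in responders than in non-responders, a share near the 48.9% of all genes called, with 23.8% lower. Among them were Twist1 (-0.60, adjusted p = 0.00346) and Prrx1 (-0.54, adjusted p = 0.00776). Prrx1, which specifies mesenchyme, was also lower in stable tumours (-0.59, adjusted p = 0.0239), although 5 of the 7 factors were higher in non-responders than in controls, beside 10.6% of all genes.

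Ratios of 2 genes within a tumour do not depend on the scaling of its library, and are given as log2 ratios of RPKM without a test. The step from counts to RPKM was not the same for a gene in every tumour, so ratios of counts can differ from these. In responder 8, Rgs5 was at 15.7 scaled CPM and 1.31 RPKM, and Pdgfrb at 128 and 22.05. In control 1, Rgs5 was at 101 scaled CPM and 10.4 RPKM, and Pdgfrb at 64.4 and 8.83. The ratio of Rgs5 to Pdgfrb was -0.18 ± 0.25 in the controls (SD, n = 5), -1.23 ± 0.69 in non-responders (SD, n = 6), -3.10 ± 0.30 in stable tumours (SD, n = 6) and -3.50 ± 0.41 in responders (SD, n = 8). Pdgfrb thus exceeded Rgs5 by a median of 1.21-fold in controls and 11.0-fold in responders, and stable tumours and responders did not overlap with the other 2 groups. The ratio of Acta2 to Pdgfra was 0.51 ± 0.26, -0.86 ± 0.72, -1.51 ± 0.67 and -1.56 ± 1.30 in the same order. Its mean was lower in the outcome groups, in which Pdgfra was called higher and Acta2 itself was not called. Responder 3 (0.436) and non-responder 3 (0.213) lay within the range of the controls (0.15 to 0.84). The ratio of Thy1 to Cd3e was 4.71 ± 0.43, 3.92 ± 0.76, 3.20 ± 0.46 and 2.61 ± 0.40, which describes a smaller difference in Thy1 than in Cd3e. The ratios of Pi16 to Dpt, at -3.08 to -2.73, and of Postn to Fap, at 4.24 to 4.81, as group means, had ranges that overlapped in all groups.

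**Figure D5:**
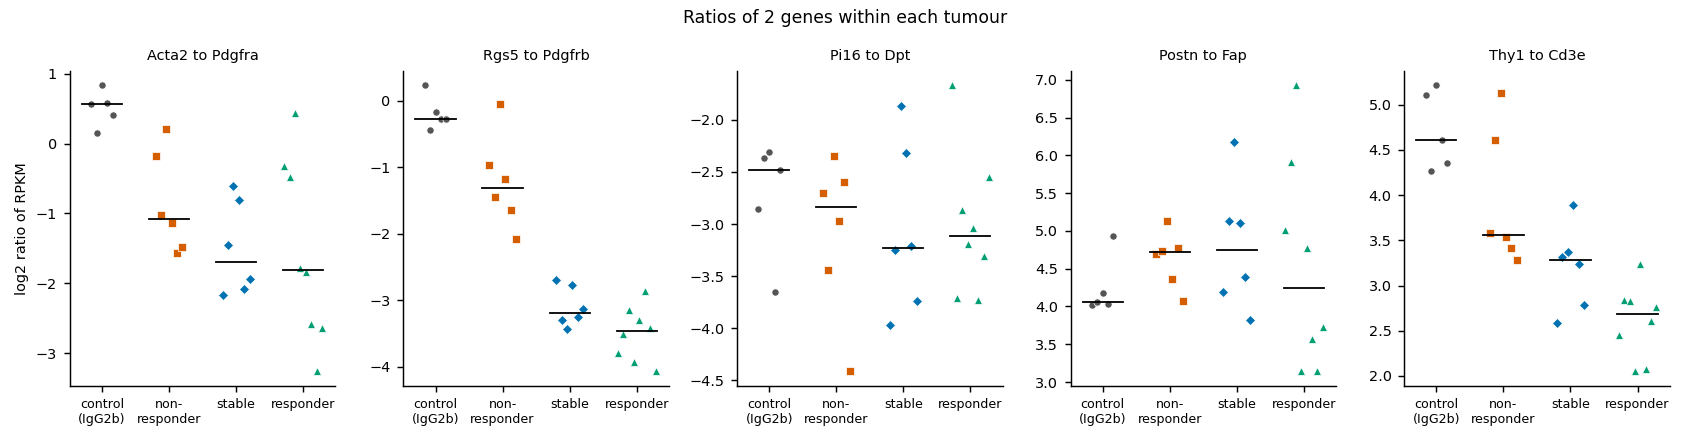
Log2 ratios of RPKM within each tumour for 5 pairs of genes, by group, with 1 point per tumour and bars at the median. Rgs5 to Pdgfrb separates stable tumours and responders from the other groups, Thy1 to Cd3e is lowest in responders, and Pi16 to Dpt and Postn to Fap overlap in all groups.

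Within groups, the contractile genes Acta2 and Tagln varied as a pair. Over 25 tumours with group means removed, Acta2 and Tagln had a Pearson r of 0.86 and a Spearman rho of 0.82 (permutation within groups, adjusted p = 0.0001 for both over 10 relations, the smallest that 100000 permutations can give), and r was 0.77 without responders 2 and 3. It was 1.0 for controls, 0.76 for non-responders, 0.94 for stable tumours and 0.86 for responders. Acta2 and Postn had r = 0.75 and rho = 0.74 (permutation, adjusted p = 0.00213 and 0.0019, r = 0.67 without the same 2 tumours). For this pair r was 0.87 in controls, 0.98 in stable tumours, 0.72 in responders and 0.01 in non-responders. Acta2 and Pdgfra had r = -0.03 and rho = 0.05 (permutation, adjusted p = 0.914 and 0.852), a value pooled over groups that differed, with r of 0.81 for the controls, -0.69 for the non-responders, 0.03 for the stable tumours and -0.04 for the responders. Acta2 and Rgs5 had r = 0.32 and rho = 0.22 (permutation, adjusted p = 0.222 and 0.427), with r from -0.58 in the controls to 0.44 in non-responders and responders. Tagln was not set against Pdgfra.

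The fibroblast genes formed another set of related pairs. Dpt and Pi16 had r = 0.72 and rho = 0.65 (permutation, adjusted p = 0.000567 and 0.0019), and r = 0.69 without responders 1 and 5. Pdgfra and Dpt had r = 0.73 and rho = 0.68 (permutation, adjusted p = 0.00116 and 0.0019), and Pdgfra and Pdgfrb had r = 0.67 and rho = 0.62 (adjusted p = 0.00116 and 0.0058). Without responder 1 and non-responder 3, which were farthest in Pdgfra, these values of r were 0.64 and 0.48. Rgs5 and Pdgfrb, both pericyte genes, had r = 0.38 and rho = 0.40 (permutation, adjusted p = 0.212 and 0.113), and Fap and Postn, both myofibroblast genes, had r = 0.17 and rho = 0.10 (adjusted p = 0.618 and 0.74), so neither of these pairs passed the threshold. Within groups r ran from -0.38 in controls to 0.68 in responders for the first pair, and from 0.03 in stable tumours to 0.69 in non-responders for the second.

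Over the same 25 tumours and 13360 genes, the genes most alike Acta2 were Ccn3 (r = 0.908), Tpp1 (r = 0.907) and Npc1 (r = 0.874). Tpp1 and Npc1 encode a protease and a cholesterol transporter of the lysosome, and none of the 3 is on a contractile list. Those most alike Dpt were Lpar1 (r = 0.878), Ogn (r = 0.878) and Cpxm1 (r = 0.872), of which Ogn is a proteoglycan of connective tissue. Those most alike Pdgfra were Cdh11 (r = 0.906), the mesenchymal cadherin, Ccdc80 (r = 0.88) and Srpx (r = 0.874). These correlations were chosen as the highest and carry no test.

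Markers of further cell types that a tumour sample can hold were also listed. Of 4 keratinocyte genes, 0 were called in any comparison (edgeR, 2 at an unadjusted p under 0.05 for responders against stable tumours, 2 there in DESeq2, which also called 1 for responders against non-responders and 1 against controls), with sums of 0.494 to 1220 scaled CPM in responders and 1.62 to 463 over the other groups. Of 4 adipocyte genes, 1 was called lower in responders than in stable tumours, beside 17.8% of all genes. Another call was 1 higher in stable tumours than in controls, beside 22.2% of all genes, and the sums reached 40.1. Of 4 Schwann cell genes, 2 were lower in responders than in non-responders and 1 was higher in stable tumours, with sums from 139 to 437. Among all genes, 23.8% and 7.08% were called in these directions. The part of these cell types in the levels of the 10 genes was not tested.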

How the data were processed

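Gene expression was measured by RNA sequencing in 25 tumours. The authors deposited expected counts per gene, made from trimmed reads per the submitters' processing notes, which list bcl2fastq 2.17, Trimmomatic, STAR 2.5.1, RSEM 1.2.22 and mm10. The authors also deposited RPKM values for 19522 gene symbols, but not the lengths or totals behind them. The labels name a stranded total RNA kit but give the molecule as polyA, which was not resolved. Of the deposited counts, 5.64% were not whole, and all were rounded. Gene positions are from GENCODE M21 on GRCm38, whose identifiers match all 55450 genes.

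Counts were tested with edgeR 4.0.16 in R 4.3.3: filterByExpr by group, TMM scaling, 1 dispersion fit over all 25 tumours, robust quasi-likelihood F tests for 7 comparisons, two-sided, with Benjamini-Hochberg adjustment over 18031 genes and a threshold of 0.05. Standard errors are the fold change divided by the root of F, and 95% intervals are normal intervals from them. The procedure was tested on simulated data. Totals of 8.77 to 34.3 M counts limit the precision of genes with few counts. Relations used group-centred log2 CPM (prior count 2) and 100000 permutations within groups. Replicates differed by more than sampling noise (lowest chi-square per gene 15.7).

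Alternatives were RLE size factors, no filter, a stricter filter (a mean count of at least 50 and 1 CPM in 8 tumours), only the groups compared, protein-coding genes only, the protein-coding share as a covariate, at least a 2-fold change, DESeq2 1.42.0, limma 3.58.1 on log2(RPKM + 1) or log2(RPKM + 0.1) with an RPKM of 0.1 in 5 tumours, and leaving out each tumour. A fit without the 2 responders of low protein-coding share, and 4 other forms of that share as a covariate (its log2, its log odds, the log2 of the share outside protein-coding genes, and the share centred on its group mean), were chosen after seeing the data.

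The 10 genes and all lists were chosen with earlier results of these data known. Named throughout are the 10 genes, up to 2 genes per list and direction, by lowest adjusted p, called in responders or stable tumours against non-responders, and the 3 genes most alike Acta2, Rgs5, Dpt, Pdgfra and Thy1, leaving out predicted genes, receptor segments and pseudogenes. Kcnj8, Higd1b, Vtn, Cox4i2, Notch3, Cspg4, Pdgfa, Cdh5 and Cd3e were added after their values were seen.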

Additional observations from a re-analysis of the deposited data

Results flagged for a closer look

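In 3 of 40 groups of values (10 genes in 4 groups), 1 tumour lay far from the others of its group by Dixon's criterion, which chance meets in about 1 in 20 groups. Dpt in responder 5 was at 108 scaled CPM, the highest of the 8 responders, of which the next was at 40.5. Pi16 in the same tumour was at 22.3 scaled CPM, with the next responder at 5.78. Pi16 in non-responder 4 was at 25.8 scaled CPM, with the next non-responder at 11.7. Responder 5 also had the highest protein-coding share of the responders (87.0%), and the part of that difference in its Dpt and Pi16 levels was not tested.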

How the results depend on the processing

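The counts of the 10 genes called kept within 1.5 times the reported count except as follows. Requiring at least a 2-fold change left 1 gene for all anti-CTLA-4 tumours against controls, 2 for responders, 4 for stable tumours and 0 for non-responders against controls, and 0 for responders against stable tumours and for stable tumours against non-responders (edgeR's test against a threshold, which gave 1, 2 and 1 genes at an unadjusted p under 0.05 in the 3 comparisons with 0, where DESeq2 without that requirement called 4, 4 and 2). With protein-coding share as a covariate, 0 genes were called between responders and stable tumours (edgeR, 1 at an unadjusted p under 0.05), as were 0 of all 18031 genes. These values depend on the form of the covariate. Of all genes, the share as a percentage called 1810 between responders and non-responders, its log2 4627, its log odds 536, the log2 of the share outside protein-coding genes 2 and the group-centred share 9405, and between responders and stable tumours 0, 322, 0, 0 and 7835. Of the 10 genes, the log2, the log odds and the log2 of the outside share gave 0 between responders and stable tumours (edgeR, 2, 0 and 0 at an unadjusted p under 0.05) and the group-centred share 5. Between responders and non-responders the log2 of the outside share gave 0 (edgeR, 2 at an unadjusted p under 0.05) and the group-centred share 2. Non-responders against controls had 5 with the log odds or the log2 of the outside share. DESeq2 called 2 genes (Pi16 and Rgs5) between stable tumours and non-responders. Leaving out each tumour in turn gave 1 to 3 genes for responders against non-responders, 2 to 5 for responders against stable tumours and 1 to 2 for stable tumours against non-responders, with the highest counts without responder 5 in each.

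For single genes, 2601 of the alternative fits kept direction and side of the threshold, 60 lost a call, 69 gained one and 70 changed the sign of a difference, which was a called one only for Postn in responders against stable tumours (0.19 with the log2 of the outside share). With the covariate, responders against stable tumours came to 0.02 for Acta2, 0.07 for Pdgfra, 0.03 for Pdgfrb, 0.05 for Rgs5, 0.45 for Tagln and 0.16 for Thy1, and responders against non-responders to 0.18 for Dpt, 0.12 for Fap, 0.57 for Pdgfra, 0.39 for Postn and 0.40 for Tagln. With the log2 of the share, responders against stable tumours came to 0.20 for Tagln and 0.06 for Thy1, and responders against non-responders to 0.03 for Fap, 0.41 for Pdgfra, 0.12 for Postn and 0.14 for Tagln. With its log odds, the first came to 0.15 for Acta2, 0.12 for Pdgfra, 0.03 for Pdgfrb, 0.04 for Rgs5, 0.62 for Tagln and 0.17 for Thy1, and the second to 0.07 for Acta2, 0.33 for Dpt, 0.14 for Fap, 0.62 for Pdgfra, 0.06 for Pi16, 0.55 for Postn and 0.55 for Tagln. With the log2 of the outside share, the first came to 0.42 for Acta2, 0.14 for Pdgfra, 0.01 for Rgs5, 0.85 for Tagln and 0.16 for Thy1, the second to 0.33 for Acta2, 0.52 for Dpt, 0.07 for Fap, 0.63 for Pdgfra, 0.33 for Pi16, 0.82 for Postn and 0.76 for Tagln, and responders against controls to 0.09 for Acta2 and 0.20 for Tagln. With the group-centred share, Fap in responders against controls was -0.02. Fap in responders against controls was -0.12 without a low-count filter and -0.04 with only the groups compared or in limma on log2(RPKM + 0.1). Pdgfra in responders against non-responders was 0.04 under the stricter filter and 0.18 without the 2 responders of low protein-coding share, and Pdgfrb was -0.01 without a filter. Leaving out 1 tumour gave -0.28 to 0.06 for Acta2 and -0.27 to 0.14 for Tagln in stable tumours against non-responders, -0.12 to 0.21 for Fap and -0.22 to 0.51 for Pi16 in responders against controls, and -0.19 to 0.09 for Pdgfra and -0.03 to 0.25 for Pdgfrb in responders against non-responders. The cause was not tested. No paired analysis was possible because the labels give no pairing and replicates were numbered in record order. Depth limits Tagln most, with 9 counts in its lowest library.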
